A study of Mus musculus with 6 samples.

Results

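Wnt ligands are secreted lipid-modified glycoproteins through which neighbouring cells direct each other's growth and fate, and 10 of their genes are described here in the anterior palate of mouse embryos in which Wnt1Cre acts on floxed Meis2, a homeobox transcription factor gene. The members are Wnt2, Wnt2b, Wnt4, Wnt5a, Wnt5b, Wnt6, Wnt9a, Wnt10a, Wnt11 and Wnt16, chosen by symbol from the 24421 rows of each full table. They are 10 of the 19 Wnt ligand genes listed there.

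RNA-seq was made from 3 Wnt1Cre;Meis2f/f samples and 3 wildtype samples of palatal mesenchyme at E12.5, all on a C57BL/6 background. The epithelium had been taken off with Dispase II. Wnt1Cre is a recombinase made in the neural crest, which gives rise to most of this mesenchyme, so cells of other origin keep their Meis2. The genotype label of the mutant samples spells the gene Meif2 where their titles have Meis2. The wildtype samples carry neither the Cre nor the floxed allele as far as the labels say, so an effect of the Cre transgene and one of losing Meis2 cannot be told apart.

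Wnt ligands bind Frizzled receptors. With the co-receptors Lrp5 and Lrp6 they stabilise beta-catenin, while ligands such as Wnt5a and Wnt11 act largely through Ror and planar polarity proteins on cell shape and movement. In the palate the mesenchyme is known for Wnt5a and Wnt11, and the covering epithelium for ligands such as Wnt4, Wnt6, Wnt10a and Wnt10b.

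Deposited fold changes and adjusted p-values come from DESeq2's Wald test as run by the authors, with calls made at an adjusted p under 0.05. Their tables hold a comparison of all 6 libraries and one of 4 of them, with no column per library. Their base means, which are mean normalised counts, nevertheless fixed whole-number read counts in each library. All 18911 genes tried, those with reads and a base mean of at most 1600, had a single set of 6 counts that gave both base means. The sign of the fold change places 3 libraries on the mutant side, here called P, Q and R, and 3 on the wildtype side, here called X, Y and Z. R and Z are those absent from the 4-library table, and no letter can be tied to a replicate number. Summed counts of these genes ran from 3768062 in Y to 6837746 in P. Directions rest on reading the fold change as mutant over wildtype, since Meis2 is lower under that reading, so its direction is no independent check of the genotypes. Meis2 had 1250, 1218 and 1378 normalised counts in the mutant libraries P, Q and R, against 1526, 1695 and 1549 in the wildtype libraries X, Y and Z. The authors' deposited table lists Meis2 at -0.28 on the log2 scale (SE 0.092), with an adjusted p of 0.0743 that missed the threshold. At a 10 times wider tolerance 4 sets of counts met both base means of Meis2, with log2 ratios of means from -2.10 to 1.25, so its counts are fixed less firmly than those of most members. Reads from exons that the deletion leaves in place still count toward these values.

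Wnt16 and Wnt11 fell in the mutant, and none of the other 8 members was called. Their promoters are shown because these are the members that changed together. Each window runs from 250 bases before to 50 bases after a RefSeq transcription start (GRCm38.p6), printed 5′ to 3′ on the gene's own strand, with capitals at CCAAT and TATAAA and, if present, TGACAG, the core of the Meis binding motif, on either strand. Wnt16 lies at chr6:22287977-22288276 on the plus strand, and Wnt11 has windows at chr7:98834862-98835161 (first) and chr7:98838595-98838894 (second), also on the plus strand.
Wnt16: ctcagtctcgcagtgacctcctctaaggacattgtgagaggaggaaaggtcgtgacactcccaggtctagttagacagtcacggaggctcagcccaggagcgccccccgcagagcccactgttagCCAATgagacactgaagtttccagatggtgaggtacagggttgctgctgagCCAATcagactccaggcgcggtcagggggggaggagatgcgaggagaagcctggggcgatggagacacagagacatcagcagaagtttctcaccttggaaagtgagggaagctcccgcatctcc
Wnt11 first: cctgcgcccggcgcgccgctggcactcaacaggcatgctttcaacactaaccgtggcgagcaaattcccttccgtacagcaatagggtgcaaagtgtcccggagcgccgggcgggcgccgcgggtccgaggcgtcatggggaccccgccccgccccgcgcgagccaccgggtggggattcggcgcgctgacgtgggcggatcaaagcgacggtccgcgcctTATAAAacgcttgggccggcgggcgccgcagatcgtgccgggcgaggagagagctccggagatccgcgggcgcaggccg
Wnt11 second: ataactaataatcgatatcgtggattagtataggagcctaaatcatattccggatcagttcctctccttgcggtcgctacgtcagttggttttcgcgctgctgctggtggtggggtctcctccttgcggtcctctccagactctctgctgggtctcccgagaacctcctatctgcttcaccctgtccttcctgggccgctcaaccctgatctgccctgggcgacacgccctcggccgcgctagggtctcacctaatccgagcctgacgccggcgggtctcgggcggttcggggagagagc
The letters TGACAG were in 0 of these 3 windows, and in 19.2% of all 32851 RefSeq promoter windows of this length. The Wnt16 window holds CCAAT at 2 places, as 37.4% of all windows do at least once, and its GC content is 58.0%. The first Wnt11 window holds TATAAA, as 13.6% of all windows do, with a GC content of 71.3%. RefSeq windows matched 8 of the members, all but Wnt5a and Wnt10a, 11 windows in all. Among the 11 the Wnt4 window (chr4:137277385-137277684, plus strand) was the only one to hold TGACAG, and is printed to show where:
Wnt4: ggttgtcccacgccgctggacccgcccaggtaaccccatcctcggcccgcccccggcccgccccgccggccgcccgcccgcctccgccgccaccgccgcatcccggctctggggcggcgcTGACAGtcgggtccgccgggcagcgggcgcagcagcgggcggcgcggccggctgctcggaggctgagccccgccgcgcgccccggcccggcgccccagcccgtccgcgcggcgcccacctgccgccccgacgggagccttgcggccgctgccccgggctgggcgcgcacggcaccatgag
Wnt4 was not called in either direction. A match of these letters is a description of the sequence and not a binding site, and no match says only that the letters are not in the window.

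Wnt16, known from joint and bone development, is transcribed from chromosome 6 (22288227 to 22298522, plus strand, GRCm38). It had 21.6, 23.2 and 30.1 normalised counts in the mutant libraries P, Q and R, against 79.9, 51.6 and 76.9 in the wildtype libraries X, Y and Z. Every mutant library lay below every wildtype library. In bulk samples such as these, fewer cells of a type and less RNA per cell cannot be told apart. These values rest on 31, 19 and 32 reads in the mutant libraries and on 100, 40 and 65 in the wildtype libraries. The means were 25.0 ± 4.53 in the mutant and 69.5 ± 15.5 in wildtype (SD, n = 3 each), a ratio of 0.359. The authors' deposited table lists Wnt16 at -0.71 on the log2 scale (SE 0.150), at an adjusted p of 2.23e-04, a value moderated toward 0. On the recovered counts, with no moderation of the fold change, the log2 difference was -1.43 (limma, 95% interval -1.95 to -0.91, adjusted p 0.00787).

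Wnt11, a ligand of the planar polarity type that guides cell movements in embryos, is at chromosome 7, 98835112 to 98855195, on the plus strand. It had 241.4, 264 and 266 normalised counts in the mutant libraries P, Q and R, against 379.5, 373 and 407 in the wildtype libraries X, Y and Z. The genotypes were again apart, by more than the range within either. The means were 257 ± 13.8 in the mutant and 387 ± 17.9 in wildtype (SD, n = 3 each), a ratio of 0.666. The authors' deposited table lists Wnt11 at -0.49 on the log2 scale (SE 0.112), at an adjusted p of 8.64e-04. The log2 difference on the recovered counts was -0.59 (SE 0.104, limma, adjusted p 0.0113). An annotated gene, the processed pseudogene Gm8398, shares 364 exon bases with Wnt11 on the opposite strand, and since no strand setting is stated its reads could not be separated from those of Wnt11.

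The authors' deposited 6-library table calls 2 of the 9 members with an adjusted p lower and 0 higher, where 1.16% of 14942 tested genes were lower and 1.75% higher. Before adjustment, the same deposited table has 2 members lower and 1 higher (Wnt5a) at p under 0.05. Among 14577 genes whose base mean reaches 10, 5.21% were lower and 5.46% higher at that p. The authors' deposited table of 4 libraries has both called again, Wnt16 at -0.43 (adjusted p 0.0418) and Wnt11 at -0.42 (adjusted p 0.0487) on the log2 scale, where 0.99% of 14548 genes were lower and 1.31% higher. By limma on the recovered counts 2 members were lower and 0 higher, where 0.984% of 12500 genes were lower and 1.58% higher. The calls were sensitive to single libraries. Without wildtype library X the limma adjusted p was 0.0673 for Wnt16 and 0.0655 for Wnt11, and without mutant library P it was 0.0710 for Wnt11.

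Some markers of mesenchyme and of other cell types also differed between the genotypes. All 10 palatal mesenchyme markers were measured, with base means in the authors' deposited table from 103 for Msx1 to 50618 for Col3a1. Of these the authors' deposited table has 2 that fell, Twist1 at -0.45 and Prrx1 at -0.31, and 1 that rose, Pax9 at 0.46, on the log2 scale. With 4 libraries 2 were lower and 2 higher. The 5 mesenchyme markers with counts summed to 2295 to 2513 in the mutant libraries and 1735 to 2408 in the wildtype libraries, so their sums overlapped. Of 9 muscle markers 6 rose by the authors' deposited table, and the 8 with counts summed to 866 to 1514 normalised counts in the mutant libraries and 396 to 524 in the wildtype libraries. Of 5 measured neuron markers 3 fell by the authors' deposited table, and the list's 8 markers summed to 327 to 371 in the mutant libraries and 499.7 to 879 in the wildtype libraries. Of 7 macrophage markers 3 rose by the authors' deposited table, and they summed to 916 to 1080.1 in the mutant libraries and 597 to 755 in the wildtype libraries, while the 6 Schwann cell markers, 1 of which fell, summed to 1041 to 1168 in the mutant libraries and 1179 to 1528 in the wildtype libraries. With 4 libraries the authors' deposited table calls 2 muscle markers, 1 neuron marker, 2 macrophage markers and 0 Schwann cell markers (DESeq2), the last with 2 lower at an unadjusted p under 0.05. Over all tested genes the 6-library shares were the 1.75% higher and 1.16% lower given above. The muscle, neuron and macrophage sums each separated the genotypes, as Wnt16 and Wnt11 did, and no marker with counts was at 0 reads over the libraries. The Schwann cell sums separated only narrowly, at 1168 in R against 1179 in X. Single genes often separate: of 12500 with recovered counts and a base mean of at least 10, 8.94% lay lower and 9.17% higher. The part of these cells in the falls of Wnt16 and Wnt11 was not tested. The sums of 5 endothelial and 5 erythroid markers overlapped between the genotypes.

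**Figure D1:**
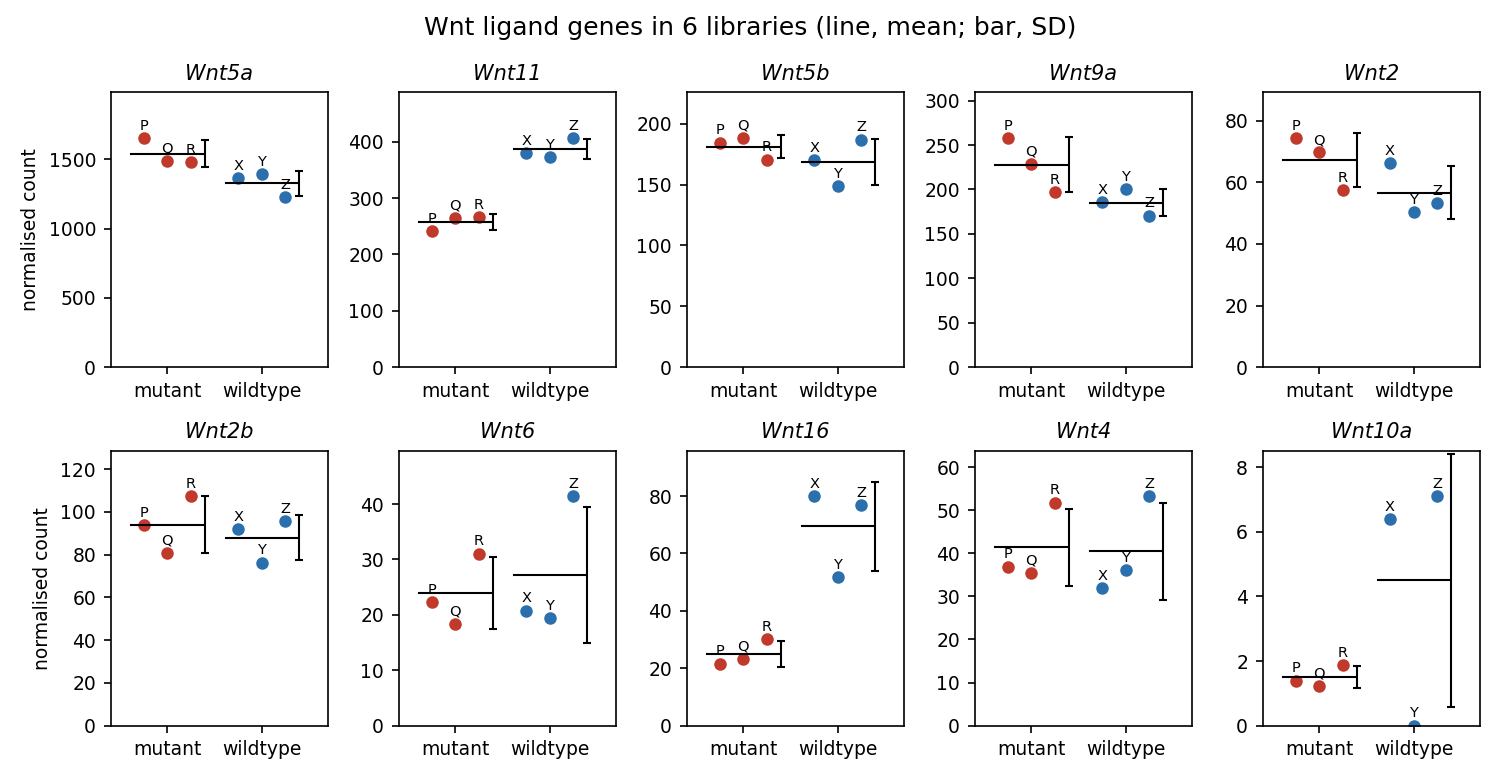
Normalised counts (linear axis from 0) of the 10 Wnt ligand genes in the mutant libraries P, Q and R (red) and the wildtype libraries X, Y and Z (blue), with the mean (line) and SD (bar), n = 3 each, in order of level per kb. Wnt16 and Wnt11 lie lower in all mutant libraries, Wnt5a lies higher in all of them, and the genotypes overlap for the other 7.

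Wnt5a was the most abundant ligand message. Per kb of exon it averaged 219 ± 14.1 normalised counts in the mutant and 189 ± 12.9 in wildtype (SD, n = 3 each), a level that no other member reached in any library. Wnt5a (chromosome 14, 28504750 to 28527448, plus strand) acts through Ror2 and is required for palate growth in mice. It had 1655, 1487 and 1479 normalised counts in the mutant libraries P, Q and R, against 1366, 1394 and 1225 in the wildtype libraries X, Y and Z. The mutant libraries were all above the wildtype ones, with P the highest and Z the lowest, but the difference did not pass the test. The ratio of means was 1.16, and the authors' deposited table lists Wnt5a at 0.19 on the log2 scale (SE 0.093), with p-values of 0.0393 before and 0.428 after adjustment. With limma the log2 difference was 0.21, with a 95% interval of 0.03 to 0.40 and an adjusted p of 0.301. At its high count the digits fix the set of counts less firmly: at a 10 times wider tolerance 3 sets met both base means. Of the 2 other sets, 1 gave a log2 ratio of means of -1.37, against the 0.19 that the authors' deposited table lists, and 1 had 30 reads in Y beside 3678 in X.

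Non-overlapping libraries are common in this comparison. Among the 12500 genes with recovered counts whose base mean reaches 10, 8.94% had all mutant libraries below all wildtype ones and 9.17% had them above. Of the 9 members with that base mean, 2 lay below (Wnt16 and Wnt11) and 1 above (Wnt5a).

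Wnt5b, the close relative of Wnt5a and a regulator of cartilage cells, did not pass the test. It had 184, 188 and 170.3 normalised counts in the mutant libraries P, Q and R, against 170.2, 148 and 187 in the wildtype libraries X, Y and Z. The genotypes overlapped. The authors' deposited table lists Wnt5b at 0.08 on the log2 scale (SE 0.128) with an adjusted p of 0.927, and the limma 95% interval of the log2 difference was -0.18 to 0.40. 

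Wnt9a, known for its part in joint formation, had 258, 229 and 197 normalised counts in the mutant libraries P, Q and R, against 185, 200.1 and 170.3 in the wildtype libraries X, Y and Z. The genotypes overlapped only through R, which lay just below Y. The authors' deposited table lists Wnt9a at 0.23 on the log2 scale (SE 0.128), the highest value among the measured members, with p-values of 0.0702 before and 0.548 after adjustment. The limma 95% interval was -0.01 to 0.59 on the log2 scale.

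Wnt2 and Wnt2b, which specify the lung in the foregut and act through beta-catenin, had similar levels per kb. Wnt2 had 74.4, 69.7 and 57.4 normalised counts in the mutant libraries P, Q and R, against 66.3, 50.4 and 53.2 in the wildtype libraries X, Y and Z. Wnt2b had 93.9, 80.7 and 107 in the mutant libraries P, Q and R, against 91.9, 76.2 and 95.8 in the wildtype libraries X, Y and Z. For both genes the genotypes overlapped. On the log2 scale the authors' deposited table lists Wnt2 at 0.13 (SE 0.149) with an adjusted p of 0.861, and Wnt2b at 0.06 (SE 0.144) with one of 0.941. The limma 95% intervals were -0.18 to 0.67 for Wnt2 and -0.28 to 0.47 for Wnt2b.

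**Figure D2:**
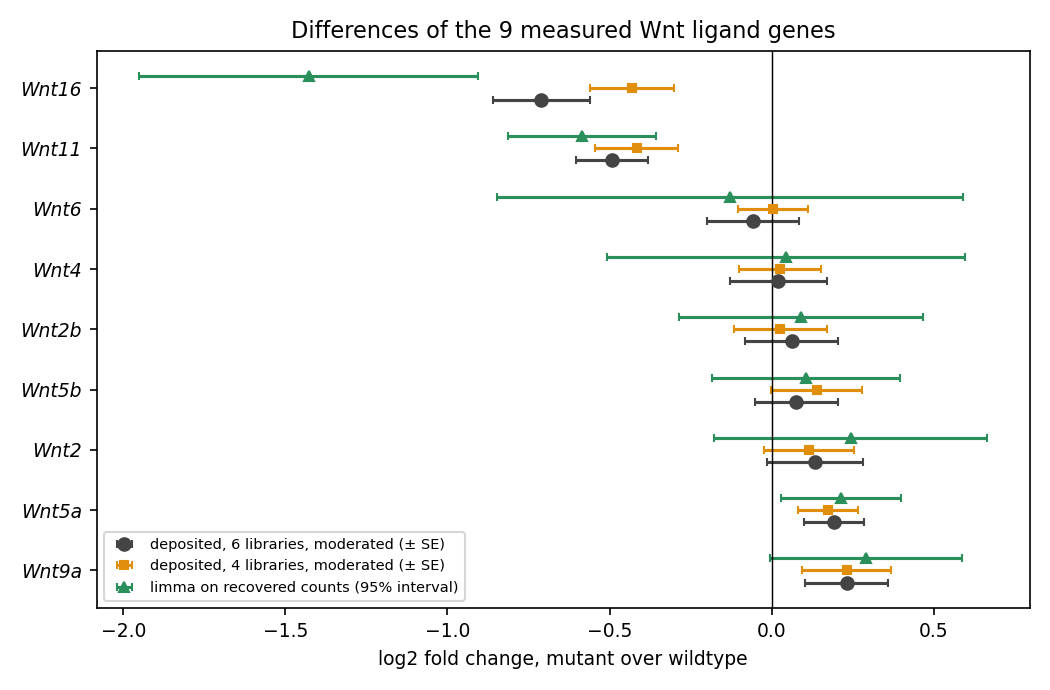
Log2 fold change, mutant over wildtype, of the 9 members whose base mean reaches 10: deposited values of the 6-library (circles, SE) and 4-library (squares, SE) tables, and limma on recovered counts (triangles, 95% interval). Wnt16 stands at -0.71 in the moderated 6-library values and at -1.43 without moderation, and the limma intervals of Wnt16 and Wnt11 lie below 0.

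The order of levels per kb of exon over all 6 libraries was Wnt5a, Wnt11, Wnt5b, Wnt9a, Wnt2, Wnt2b, Wnt6, Wnt16, Wnt4 and Wnt10a. The means behind it ran from 204 normalised counts per kb for Wnt5a and 89.1 for Wnt11 to 9.75 for Wnt4 and 1.21 for Wnt10a. Exon lengths came from GENCODE M21, which may differ from the annotation the authors counted on. The ranges over libraries separated Wnt5a from Wnt11, Wnt9a from Wnt2, Wnt2b from Wnt6 and Wnt4 from Wnt10a. The other neighbours in the order overlapped, and the place of Wnt16 differs by genotype, with 5.73 ± 1.04 per kb in the mutant and 15.9 ± 3.56 in wildtype (SD, n = 3 each).

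The summed level of the 10 ligand messages overlapped between the genotypes. The joint share of Wnt11 and Wnt16 did not, and neither did the share of Wnt5a. The sum was 536, 503 and 500.1 normalised counts per kb in the mutant libraries P, Q and R, against 515, 493 and 514 in the wildtype libraries X, Y and Z. Wnt11 and Wnt16 together made up 15.0 ± 1.44% of it in the mutant and 24.2 ± 1.01% in wildtype (SD, n = 3 each). Wnt5a made up 42.7 ± 1.09% in the mutant and 37.3 ± 3.20% in wildtype. Its share ran from 42.1% to 44.0% in the mutant libraries and from 33.9% to 40.3% in the wildtype libraries. These shares restate the levels above and carry no test of their own. The other 9 Wnt ligand genes added little: the 10 members held 96.6% to 97.3% of the summed level of all 19 in the mutant libraries and 95.9% to 98.0% in the wildtype libraries.

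**Figure D3:**
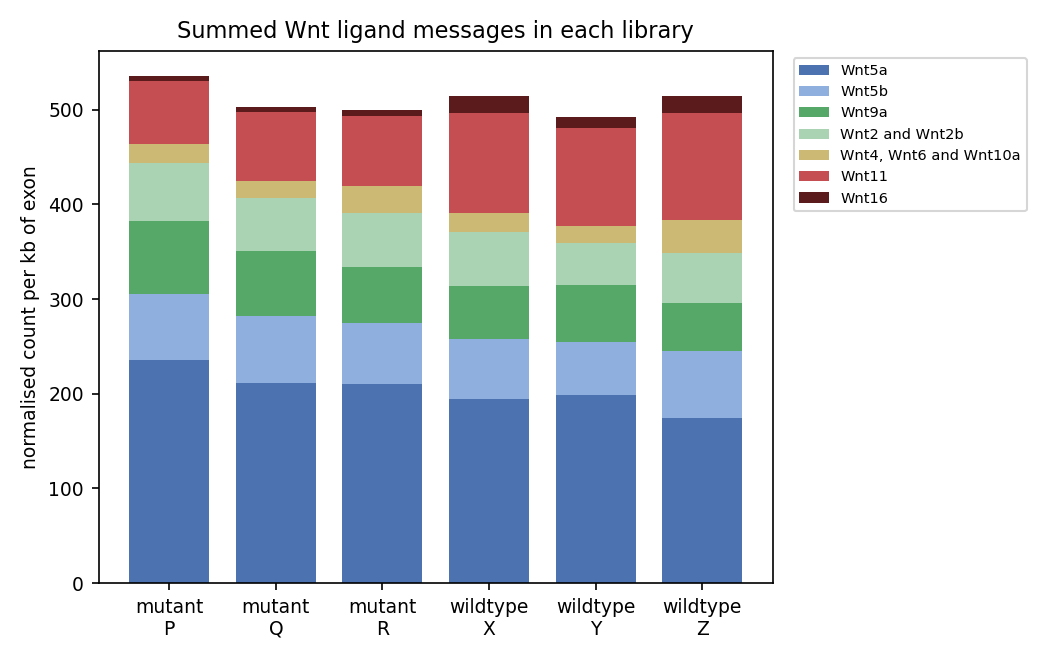
Stacked normalised counts per kb of exon of the 10 ligand genes in the mutant libraries P, Q and R and the wildtype libraries X, Y and Z. The total lies between 493 and 536 in all 6 libraries, and the red and dark parts for Wnt11 and Wnt16 are smaller in the mutant libraries.

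The ligands known from oral epithelium were present at low levels, although the epithelium had been removed. Wnt6, a ligand of surface ectoderm, had 22.3, 18.3 and 31.0 normalised counts in the mutant libraries P, Q and R, against 20.8, 19.4 and 41.4 in the wildtype libraries X, Y and Z. Wnt4, also needed in kidney and ovary development, had 36.9, 35.5 and 51.7 in the mutant libraries P, Q and R, against 32.0, 36.2 and 53.2 in the wildtype libraries X, Y and Z. Both were highest in R and Z, 1 library of each genotype, so the genotypes overlapped.

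On the log2 scale the authors' deposited table lists Wnt6 at -0.06 (SE 0.142) with an adjusted p of 0.946, and Wnt4 at 0.02 (SE 0.150) with one of 0.983. Their spread leaves wide limma 95% intervals, from -0.85 to 0.59 for Wnt6 and from -0.51 to 0.60 for Wnt4 on the log2 scale. Wnt10a, a ligand of teeth and skin appendages, had 2, 1 and 2 reads in the mutant libraries P, Q and R, against 8, 0 and 6 in the wildtype libraries X, Y and Z. A count of 0 in Y allows up to 3.87 normalised counts there, counting error only. The authors' deposited table lists no adjusted p for Wnt10a, and a difference was not detectable at this depth.

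Markers of epithelium moved with Wnt6, Wnt4 and Wnt2b across the libraries. The summed level of 16 epithelial markers, Epcam, Cdh1, Krt5 and Krt14 among them, was 2212, 2024 and 2576 normalised counts in the mutant libraries P, Q and R, against 2096, 1892 and 2660 in the wildtype libraries X, Y and Z. R and Z were the highest for this sum too, and 14 of the 16 markers peaked in one of them. The peak in R and Z was not particular to epithelium. The endothelial marker sum was also highest there, at 4179 in R and 4232 in Z, against 3408 to 3739 in the other libraries. None of the 16 was at 0 reads over the libraries. Over the 6 libraries the log2 level of Wnt6 followed the log2 epithelial sum with a Pearson r of 0.94 and a Spearman rho of 0.94, that of Wnt4 with 0.90 and 0.77, and that of Wnt2b with 0.87 and 0.94. These are descriptions over 6 points, of which R and Z set most of the range. Wnt10a, highest in Z and X, had a Pearson r of 0.60 and a rho of 0.83 at its few reads. Other ligands known from ectoderm or epithelium went both ways, with a Pearson r of 0.79 for Wnt7b and 0.79 for Wnt10b, 0.08 for Wnt3 (rho -0.49) and -0.21 for Wnt9b (rho -0.31). Wnt3a had a Pearson r of 0.68 and a rho of 0.77. Wnt11 and Wnt16 had a Pearson r of 0.004 and 0.12 with the same sum. These values pool both genotypes, and a difference between genotypes can hide a relation within each. They therefore do not show that either gene is unrelated to the sum. In rising order of the sum, Wnt11 had 373, 380 and 407 normalised counts in the wildtype libraries Y, X and Z. In the mutant libraries Q, P and R, in that order of the sum, it had 264, 241 and 266. The part of residual epithelium in these levels was not tested.

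**Figure D4:**
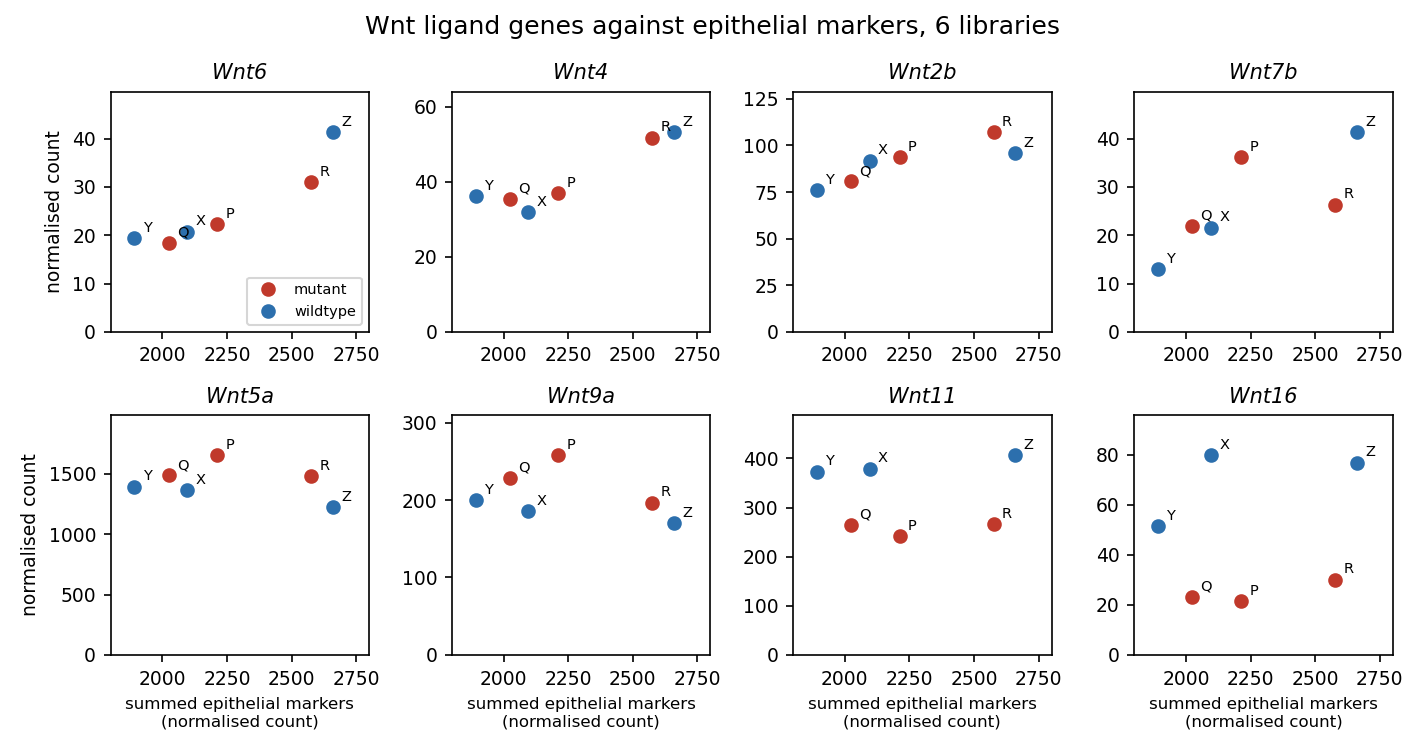
Normalised count of 8 Wnt ligand genes (vertical axes from 0) against the summed normalised count of 16 epithelial markers (horizontal axis, which does not start at 0), one point per library. Wnt6 and Wnt4 are highest in R and Z, where the markers sum to 2576 and 2660, whereas Wnt11 and Wnt16 separate by genotype at low and at high marker sums.

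Of the other 9 ligand genes, Wnt7b and Wnt10b reached a base mean of 10. Wnt7b, another ligand of epithelia, had 36.2, 22.0 and 26.3 normalised counts in the mutant libraries P, Q and R, against 21.6, 12.9 and 41.4 in the wildtype libraries X, Y and Z. Wnt10b had 14.6, 12.2 and 19.8 in the mutant libraries P, Q and R, against 8.79, 10.3 and 15.4 in the wildtype libraries X, Y and Z. Both overlapped between the genotypes and were not called, and the authors' deposited table lists adjusted p-values of 0.947 for Wnt7b and 0.874 for Wnt10b. Wnt9b, a ligand of facial ectoderm, had 16, 8 and 4 reads in the mutant libraries P, Q and R, against 3, 3 and 3 in the wildtype libraries X, Y and Z. Its normalised counts were 11.1, 9.78 and 3.76 in P, Q and R, against 2.40, 3.87 and 3.55 in X, Y and Z, so the genotypes overlapped. The authors' deposited table lists no adjusted p for Wnt9b at these counts. Wnt1, whose regulatory region drives the Cre, had 1 read in Q and 0 in the other 5 libraries.

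Genes that act on or after the ligands were counted by role, for lists that were drawn up with earlier results of these data known. Over the 7 lists 73 of 85 genes reached a base mean of 10, and of these the authors' deposited table calls 7 that rose and 5 that fell, against shares of 1.75% higher and 1.16% lower among all tested genes. Medians taken from the authors' deposited table were 0.02 over the 73 genes, 0.06 over the 9 measured ligands and -0.01 over all 14577 genes with such a base mean, on the log2 scale.

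Among ligand processing and release genes 1 of 6 fell, where 1.16% of all tested genes were lower. This was Sulf1, a sulfatase that trims the heparan sulfate to which Wnt proteins bind, which the authors' deposited table lists at -0.44 on the log2 scale (SE 0.094, adjusted p 2.90e-04). Among 12 Frizzled and LRP genes 2 fell and 1 rose, where 1.16% of all tested genes were lower and 1.75% higher. Fzd5, a receptor, averaged 59.3 ± 8.88 normalised counts in the mutant and 109 ± 11.0 in wildtype (SD, n = 3 each), and the authors' deposited table lists an adjusted p of 0.00766. Its close relative Fzd8 averaged 386 ± 17.1 in the mutant and 286 ± 20.7 in wildtype (SD, n = 3 each), and the authors' deposited table lists an adjusted p of 0.0407. Both receptor genes had non-overlapping libraries, Fzd5 lower and Fzd8 higher in the mutant. Of the 12500 genes with recovered counts and such a base mean, 8.94% lay lower and 9.17% higher without overlap. The co-receptor gene Lrp5 fell as well, listed by the authors' deposited table at -0.34 on the log2 scale (adjusted p 0.0264). With 4 libraries the authors' deposited table no longer calls Fzd5 (-0.34, adjusted p 0.290) and Fzd8 (0.32, adjusted p 0.233).

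Receptors and planar polarity genes through which Wnt5a and Wnt11 act gave no call. The authors' deposited table (DESeq2) has 0 of 16 such genes called, where 1.75% of all tested genes were higher and 1.16% lower. At shares this low, 0 calls of 16 do not set these genes apart from all genes. At an unadjusted p under 0.05 the same test has 1 higher and 2 lower. By limma 0 of the 13 with recovered counts were called, and 1 was higher and 1 lower before adjustment at the same level. The authors' deposited table gives these 16 genes log2 values of -0.36 to 0.18. Among all genes whose base mean reaches 10, the authors' deposited table has 5.46% higher and 5.21% lower at that unadjusted p.

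Secreted modulators of the ligands held most of the calls. Rspo2, an R-spondin that enhances Wnt signalling, averaged 466 ± 9.67 normalised counts in the mutant and 233 ± 1.67 in wildtype (SD, n = 3 each). Its relative Rspo3 averaged 1088 ± 42.7 in the mutant and 1590 ± 77.2 in wildtype (SD, n = 3 each). For Rspo2 the authors' deposited table lists 0.84 (adjusted p 4.44e-12), and for Rspo3 -0.49 (adjusted p 3.68e-06), on the log2 scale. They were the 2 called of 8 measured genes of the R-spondin axis, with 6 and with 4 libraries. Of 11 measured secreted antagonists, 4 rose and 1 fell by the authors' deposited table, and the median was 0.23 on the log2 scale. Beside the counts of both lists, 1.75% of all tested genes were higher and 1.16% lower. With 4 libraries 2 antagonists were higher and 0 lower, with a median of 0.15. The shares of all tested genes there were 1.31% higher and 0.99% lower.

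The inhibitor gene Dkk1 averaged 139 ± 17.8 normalised counts in the mutant and 67.6 ± 6.42 in wildtype (SD, n = 3 each), and Wif1, which binds Wnt proteins directly, averaged 139.7 ± 23.1 in the mutant and 83.1 ± 4.33 in wildtype. Dkk2, of the same Dickkopf family as Dkk1, averaged 723 ± 38.4 in the mutant and 518 ± 63.7 in wildtype, and for Sfrp1, a secreted Frizzled-related decoy gene, the authors' deposited table lists 0.44 on the log2 scale. Dkk3, a divergent member of the Dickkopf family, averaged 369 ± 25.3 in the mutant and 520 ± 39.8 in wildtype. With 4 libraries the authors' deposited table no longer calls Dkk1 (adjusted p 0.0769), Wif1 (0.218) and Dkk3 (0.191).

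Of 18 beta-catenin factors and feedback targets, 1 rose and 0 fell by the authors' deposited table (DESeq2), with 4 higher and 0 lower at an unadjusted p under 0.05. Among all genes whose base mean reaches 10, 5.46% were higher and 5.21% lower at that unadjusted p. Called shares of all tested genes were 1.75% higher and 1.16% lower. The call was Tle1, a co-repressor that binds the TCF factors, listed by the authors' deposited table at 0.28 on the log2 scale (SE 0.085, adjusted p 0.0383). With 4 libraries the authors' deposited table no longer calls it (0.27, adjusted p 0.0620). By limma 0 of the 13 with recovered counts were called, and before adjustment 4 passed as higher and 0 as lower. The share of all genes that pass limma before adjustment was not taken, so these limma counts have no background beside them.

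**Figure D5:**
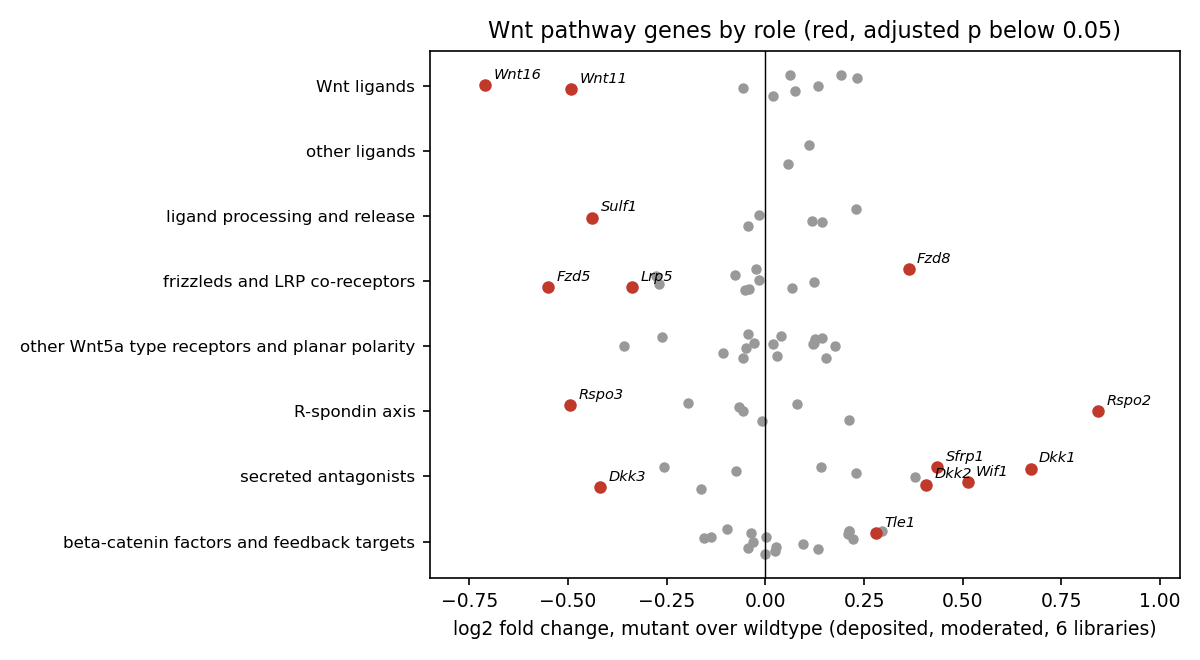
Deposited, moderated log2 fold changes (mutant over wildtype, 6 libraries) of Wnt pathway genes whose base mean reaches 10, one point per gene, in rows by role. Red points have an adjusted p under 0.05: Wnt16 at -0.71 and Wnt11 at -0.49 among the ligands, and Rspo2 at 0.84 as the highest of all.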

How the data were processed

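RNA of 6 samples was amplified and made into TruSeq v2 libraries, per the labels' protocols. The authors used HISAT2, featureCounts and DESeq2 with the builds GRCm38 and mm10, per the submitters' processing notes. Versions and the strand setting are not given in these sources. The tables hold the authors' DESeq2 output. The deposited base mean is a signal, namely the average over libraries of size-factor normalised counts. Deposited log2 fold changes, with standard errors, are moderated toward 0. The deposited Wald statistic is a score. Each deposited p-value also has a Benjamini-Hochberg adjusted form. The third table repeats 1613 rows of the first, those with a p under 0.05, and adds no measurement.

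Base means of single-read genes gave each library's size factor, from 0.775 to 1.44. For each gene with a base mean of at most 1600, whole-number counts were sought that gave the base mean of the 4-library table to its 15 digits and that of the 6-library table to its 10 digits. Each of 18911 genes had 1 solution. On simulated counts all 799 genes were recovered, 99 of them drawn from genes with a base mean above 500. The simulation used the same size factors as the search, so it does not test error in them. The sign of the ratio of means equalled the deposited sign for 376 of 376 called genes. Libraries of 1 genotype differed by more than counting noise (chi-square per degree of freedom of 3.06 to 6.85). The 1948 genes above the limit have no counts here.

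The main test is the authors' DESeq2 adjusted p under 0.05. limma 3.58.1 (R 4.3.3) on log2(normalised count + 1) of the 12500 genes whose base mean reaches 10 was added after the data were examined, with each library left out in turn. On simulated counts over 12500 genes limma called 100% of 200 changes of 1 on the log2 scale and 11 unchanged genes. The changed genes were drawn from the more abundant ones, and all genes were given the same dispersion. The simulation therefore gives no rate for smaller changes, such as that of Wnt11, or for genes of low count. Alternatives were the 4-library table, other sets of genes for the adjustment, a threshold of 0.1, centring on the median gene, scaling by summed counts and a wider tolerance. All members are named, with called genes of 7 pathway lists; markers are given as 8 lists. The members and lists were chosen with earlier results of these data known. Labels call the samples biological replicates. The limit set by a count of 0 covers counting error only.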

Additional observations from a re-analysis of the deposited data

How the results depend on the processing

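The count of 2 lower members was also found in the 4-library table, with p adjusted over all rows or over base means of at least 10, at a threshold of 0.1, after centring, and by limma with all 6 libraries or scaled by summed counts. It was 1 with p adjusted over base means of at least 100, where Wnt16 is no longer tested, and ranged from 0 to 2 when limma left out 1 library in turn. The count of higher members was 0 under every alternative run. Over its alternatives the adjusted p ran from 2.17e-04 to 0.0673 for Wnt16, from 7.16e-04 to 0.0710 for Wnt11 and from 0.200 to 0.640 for Wnt5a. Leaving out 1 library moved the log2 difference between -1.63 and -1.32 for Wnt16, between -0.61 and -0.54 for Wnt11, between 0.16 and 0.25 for Wnt5a, between 0.02 and 0.18 for Wnt5b, between 0.20 and 0.39 for Wnt9a, between 0.17 and 0.36 for Wnt2, between -0.0077 and 0.20 for Wnt2b, between -0.12 and 0.26 for Wnt4 and between -0.33 and 0.21 for Wnt6. Wnt2b, Wnt4 and Wnt6 thereby changed sign without being called, and Wnt6 was at 0.0051 in the 4-library table; the cause was not tested. Meis2 passed the threshold in the 4-library table, at -0.33, and without mutant library R, at -0.36 with an adjusted p of 0.0390. Over all pathway lists 3 genes rose and 3 fell in the 4-library table, against 7 and 5 in the 6-library table. Of all tested genes 1.31% were higher and 0.99% lower with 4 libraries, against 1.75% and 1.16% with 6. By limma 4 of the 52 list genes with recovered counts rose and 3 fell, where 1.58% of 12500 genes were higher and 0.984% lower. A 10 times wider tolerance left 9 of 10 members with a single set of counts, Wnt5a having 3. No paired analysis was possible because the tables name no library by its replicate number, so the replicate block could not be fitted. Depth limits Wnt10a, with 19 reads in all.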
